A study of Homo sapiens with 15 samples.

Results

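The genes described here are the cyclins that carry cells from G1 into S phase, the kinases they activate and CDC25A. They were chosen by symbol, as 10 of the 23368 genes in the deposited expression table: CCND1, CCND2, CCND3, CCNE1, CCNE2, CCNA2, CDK2, CDK4, CDK6 and CDC25A. All 10 were among the 14298 genes tested. RNA was sequenced, by the labels, from U2OS, a human osteosarcoma cell line with wild-type p53. Every group is thus labelled as sharing 1 tumour line and its genetic background. The markers of 1 library, given below, were unlike those of the others. Cells received Nutlin or its vehicle DMSO. Nutlin blocks MDM2, the ubiquitin ligase that marks p53 for destruction, and was labelled as given at 10, with the unit prefix lost and read here as µM. Asynchronous cells were cycling cultures (3 DMSO and 3 Nutlin libraries), and the labels give no time in Nutlin for them. Non-released cells (2 DMSO and 2 Nutlin libraries) were held by a double block with 2 mM thymidine, which stalls DNA synthesis by starving cells of deoxycytidine nucleotides. That block ran for 16 h, was lifted for 8 h and ran for another 16 h, with Nutlin or DMSO added 4 h before the point at which the block was kept on or lifted. S-phase cells (3 DMSO and 2 Nutlin libraries) had the same block and additions, were washed free of thymidine and were harvested 4 h later with Nutlin still present. The series title places the study in work on p53 activity and the movement of DNA replication forks.

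D-type cyclins bind CDK4 and CDK6 in G1 in response to growth signals and begin to phosphorylate the retinoblastoma protein, which frees E2F transcription factors. E2F raises the E cyclins and cyclin A2, which bind CDK2 to start and sustain DNA replication, and the phosphatase CDC25A removes inhibitory phosphates from CDK2. Active p53 raises CDKN1A, whose product p21 inhibits these kinases and, through retinoblastoma family proteins, lowers transcription of many cell cycle genes.

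Values are on the deposited scale, a variance-stabilised log2 scale on which 1 unit is about a doubling at the abundance of these genes. Each difference is given on it with a standard error (SE), and an adjusted p from limma under 0.05 counts as a call. Recovered reads ran from 6.05 to 23.38 M per library. CDKN1A and MDM2, targets of p53 that check the Nutlin label, stood at 13.51 to 14.17 and 14.55 to 14.84 in the 7 Nutlin libraries. In 7 of the 8 DMSO libraries they stood at 11.45 to 12.53 and 12.44 to 13.10. The library labelled DMSO asynchronous replicate 3 lay at 14.10 for CDKN1A and 14.77 for MDM2, at the Nutlin level, and so went against its label. It was also the highest library for 16 of 17 markers of epithelial and luminal breast cells, with a summed level of 52843.9 normalised reads against 14959.7 to 20604.6 in the other 14. That sum includes KRT8, KRT18 and XBP1, which stood at 2133.1 or more in every library. KRT19 stood at 7826.1 in this library and 3.7 to 33.9 in the others, and ESR1 at 1434.1 and 2.1 to 22.6. AREG, the exception, stood at 16.2 and 3.2 to 53.2. Markers of bone and mesenchymal cells summed to 60979.5 there and to 64775.3 to 89733.2 elsewhere, with TWIST1 of that list at 3 reads or fewer in every library. Blood markers summed to 68.0 there and 87.3 to 161.5 elsewhere, with CD3E, CD4, HBB and LYZ among those at 3 reads or fewer in every library. The fewest reads, 6.05 M, came from DMSO S-phase replicate 2. Its mean correlation with its own group across genes was 0.9773, and that of DMSO asynchronous replicate 3 was 0.9753, the lowest of the 15 libraries. For the cyclins, their kinases and CDC25A, differences are also given with these 2 libraries left out wherever that changed a call. For CDKN1A, MDM2 and the genes of the pathway lists below, they are given with all 15 libraries only. Nothing in the labels says that replicates came from separate cultures, and p-values then reflect only how far these libraries spread.

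Promoters of CDC25A and CCNA2 are shown because these genes varied together (r = 0.75 over 15 libraries). Their pairing was not the closest among members with a matched promoter, since CCND3 and CCNE1 gave r = 0.86. CCNE1 is shown because its range over libraries was the widest among members with a matched promoter. Each line holds the 250 bases before the annotated start, 5′ to 3′ on the gene's strand, from RefSeq on GRCh38.p14. They come from chr3:48188418-48188667 (minus strand), chr4:121823884-121824133 (minus strand) and chr19:29811741-29811990 (plus strand).
CDC25A: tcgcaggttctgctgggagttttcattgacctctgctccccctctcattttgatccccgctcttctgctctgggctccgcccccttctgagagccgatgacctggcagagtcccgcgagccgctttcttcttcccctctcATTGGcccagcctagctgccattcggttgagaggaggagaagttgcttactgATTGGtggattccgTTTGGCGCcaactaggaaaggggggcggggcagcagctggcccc
CCNA2: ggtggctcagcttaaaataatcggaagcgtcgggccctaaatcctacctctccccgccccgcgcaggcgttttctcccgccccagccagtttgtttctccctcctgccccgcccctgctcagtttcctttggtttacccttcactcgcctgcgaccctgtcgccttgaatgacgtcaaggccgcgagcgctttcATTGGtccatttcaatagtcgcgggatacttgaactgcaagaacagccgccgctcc
CCNE1: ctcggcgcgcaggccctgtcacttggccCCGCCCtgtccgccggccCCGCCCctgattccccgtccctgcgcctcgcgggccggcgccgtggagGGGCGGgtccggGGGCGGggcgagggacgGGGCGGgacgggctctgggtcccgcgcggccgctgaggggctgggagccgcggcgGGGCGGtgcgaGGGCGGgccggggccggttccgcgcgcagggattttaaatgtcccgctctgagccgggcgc
In CDC25A and CCNA2 the capitals mark matches to an E2F word or a CCAAT box, and in CCNE1 they mark GC boxes. The E2F words searched were TTTGGCGC, TTTCCCGC, TTTCGCGC and TTTGCCGC, the CCAAT box was CCAAT and the GC box GGGCGG, each on both strands. CDC25A held 1 E2F word, 44 to 37 bases before its start, and 2 CCAAT boxes read on the other strand, at 110 to 106 and 58 to 54 bases. CCNA2 held 1 CCAAT box, also on the other strand, at 56 to 52 bases. CCNE1 held 7 GC boxes and no match to the other words. GC boxes were also present, in lower case above, in CDC25A (2, at 174 to 169 and 22 to 17 bases) and CCNA2 (3, at 197 to 192, 174 to 169 and 142 to 137 bases). Of 34943 promoter windows of this length, 2.8% held an E2F word, 32.0% a CCAAT box and 42.5% a GC box. RefSeq windows were matched for 6 of the 10 genes, CCND3, CDK4 and CDK6 being the others. A match is a description of letters, not of a site in use.

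CCND1 encodes cyclin D1, the growth-factor sensor of early G1. In asynchronous cells it stood at 13.01, 12.98 and 13.12 with DMSO and at 13.09, 13.17 and 13.07 with Nutlin. Non-released cells had 12.20 and 12.21 with DMSO and 12.24 and 12.28 with Nutlin. S-phase cells had 12.40, 12.28 and 12.41 with DMSO and 12.32 and 12.35 with Nutlin. All 6 asynchronous libraries lay above all 9 synchronised ones, and Nutlin and DMSO libraries overlapped in asynchronous and S-phase cells. Against asynchronous cells CCND1 fell by 0.83 ± 0.08 (SE, n = 2 and 3, adjusted p = 1.457e-05) in non-released DMSO cells and by 0.67 ± 0.07 (adjusted p = 4.936e-05) in S-phase DMSO cells. With Nutlin it fell by 0.85 ± 0.08 (adjusted p = 1.137e-05) and 0.77 ± 0.08 (adjusted p = 4.401e-05). In these bulk libraries a change in the share of cells in a phase and a change in RNA per cell cannot be told apart.

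CCND2 encodes cyclin D2, which shares the kinase partners of cyclin D1. Its asynchronous values were 13.06, 13.34 and 13.21 with DMSO and 13.42, 13.61 and 13.63 with Nutlin. Non-released cells had 13.003 and 13.025 with DMSO and 12.98 and 12.93 with Nutlin. In S-phase cells it stood at 12.58, 12.62 and 12.59 with DMSO and at 12.58 and 12.52 with Nutlin. From asynchronous through non-released to S-phase cells the group means stepped down, and the ranges of the 3 states did not overlap. Asynchronous Nutlin libraries all lay above the DMSO ones. There CCND2 rose by 0.35 ± 0.09 with Nutlin (n = 3 and 3, adjusted p = 0.0498), a call at the threshold. It held in 7 of 24 alternatives, whose adjusted p ran from 0.025 to 0.234, and was lost on leaving out any single library except DMSO asynchronous replicate 2 or DMSO S-phase replicate 2. With Nutlin, CCND2 was lower by 0.60 ± 0.10 in non-released (adjusted p = 0.000427) and by 1.00 ± 0.10 in S-phase than in asynchronous cells (adjusted p = 2.648e-05).

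With DMSO, CCND2 fell by 0.61 ± 0.09 from asynchronous to S-phase cells (adjusted p = 0.000327), whereas the non-released difference was −0.19 ± 0.10 (adjusted p = 0.139). From non-released to S-phase DMSO cells it fell by 0.42 ± 0.10 (n = 3 and 2, adjusted p = 0.0185). That call was lost without DMSO non-released replicate 1 (adjusted p = 0.130), replicate 2 (0.161) or DMSO S-phase replicate 1 (0.0524), and over all alternatives the difference ran from −0.50 to −0.41. With Nutlin the same step for CCND2 was −0.40 ± 0.11 (adjusted p = 0.0626), and −0.40 ± 0.09 with those 2 libraries left out (adjusted p = 0.0152). It also passed without DMSO asynchronous replicate 1 (0.0369), replicate 3 (0.0451) or DMSO S-phase replicate 2 (0.0374) alone.

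CCND3 encodes cyclin D3 and ran opposite to its relatives. Asynchronous cells had 10.09, 10.16 and 9.78 with DMSO and 9.83, 9.87 and 10.04 with Nutlin. Non-released cells had 10.55 and 10.74 with DMSO and 10.52 and 10.63 with Nutlin. S-phase cells had 10.75, 10.71 and 10.88 with DMSO and 10.68 and 10.79 with Nutlin. Every synchronised library lay above every asynchronous one, and Nutlin and DMSO ranges overlapped in each state. CCND3 rose by 0.63 ± 0.12 in non-released DMSO cells (adjusted p = 0.00119) and by 0.77 ± 0.11 in S-phase DMSO cells (adjusted p = 0.000283) relative to asynchronous cells. With Nutlin these differences were 0.66 ± 0.12 (adjusted p = 0.000905) and 0.82 ± 0.12 (adjusted p = 0.000389). The lowest of the 15 libraries for CCND3 was DMSO asynchronous replicate 3. With those 2 libraries left out the DMSO differences were 0.52 ± 0.10 (adjusted p = 0.000512) and 0.69 ± 0.10 (adjusted p = 0.000177).

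CCNE1 encodes cyclin E1, an activator of CDK2 at the start of S phase. In asynchronous cells it stood at 11.08, 10.92 and 10.49 with DMSO and at 10.46, 10.53 and 10.49 with Nutlin. It stood at 11.73 and 11.80 in non-released DMSO cells and at 11.54 and 11.59 with Nutlin. S-phase cells had 11.37, 11.27 and 11.41 with DMSO and 11.14 and 11.34 with Nutlin. Levels were highest in non-released cells, next in S-phase cells and lowest in asynchronous cells, with no overlap between states. CCNE1 rose by 0.93 ± 0.13 from asynchronous to non-released DMSO cells (adjusted p = 0.000205) and by 1.07 ± 0.13 with Nutlin (adjusted p = 7.649e-05). In S-phase it was higher than in asynchronous cells by 0.52 ± 0.12 with DMSO (adjusted p = 0.00676) and by 0.75 ± 0.13 with Nutlin (adjusted p = 0.00166). From non-released to S-phase cells the differences were −0.41 ± 0.13 with DMSO (adjusted p = 0.0817) and −0.33 ± 0.15 with Nutlin (adjusted p = 0.292).

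Under Nutlin in asynchronous cells the CCNE1 difference was −0.34 ± 0.12 (n = 3 and 3, adjusted p = 0.221). The library labelled DMSO asynchronous replicate 3 lay at 10.49, within the Nutlin range, and the other 2 DMSO libraries lay above that range. Without that library CCNE1 was lower by 0.51 (adjusted p = 0.00333), and with those 2 libraries left out by 0.51 ± 0.07 (adjusted p = 0.00054). With both left out, CCNE1 was also lower in S-phase than in non-released cells, by 0.38 ± 0.08 with DMSO (adjusted p = 0.00771) and 0.33 ± 0.08 with Nutlin (adjusted p = 0.0209). Leaving out DMSO asynchronous replicate 1 alone brought the DMSO step to an adjusted p of 0.0422, and replicate 3 alone to 0.00789, with the difference at −0.41 in each case.

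CCNE2 encodes cyclin E2 and had the widest range of the 10 genes, 4.57-fold between 279.9 and 1278.0 normalised reads. Asynchronous cells had 9.23, 8.87 and 8.78 with DMSO and 8.42, 8.40 and 8.39 with Nutlin. Non-released cells had 10.38 and 10.33 with DMSO and 10.18 and 10.23 with Nutlin. In S-phase cells CCNE2 stood at 9.52, 9.21 and 9.61 with DMSO and at 9.86 and 9.70 with Nutlin. Nutlin libraries lay below the DMSO ones in asynchronous and non-released cells and above them in S-phase cells, with no overlap in any state. CCNE2 fell by 0.56 ± 0.12 with Nutlin in asynchronous cells (n = 3 and 3, adjusted p = 0.0241). The differences were −0.15 ± 0.15 in non-released cells (adjusted p = 0.999) and 0.33 ± 0.13 in S-phase cells (adjusted p = 0.301). The asynchronous call for CCNE2 held in 18 of 24 alternatives and with those 2 libraries left out (−0.65 ± 0.10, adjusted p = 0.000656). It was lost without DMSO asynchronous replicate 1 (−0.42, adjusted p = 0.0743) or replicate 2 (−0.60, 0.0522), or without Nutlin asynchronous replicate 1 (−0.56, 0.0962), replicate 2 (−0.56, 0.101) or replicate 3 (−0.55, 0.0753).

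From asynchronous to non-released cells CCNE2 rose by 1.40 ± 0.13 with DMSO (adjusted p = 1.457e-05) and by 1.80 ± 0.13 with Nutlin (adjusted p = 3.021e-06). In S-phase cells it was higher than in asynchronous cells by 0.49 ± 0.12 with DMSO (adjusted p = 0.00949) and by 1.38 ± 0.13 with Nutlin (adjusted p = 3.19e-05). From non-released to S-phase cells CCNE2 fell by 0.91 ± 0.13 with DMSO (adjusted p = 0.00112). With Nutlin that step was −0.42 ± 0.15 (adjusted p = 0.161), and −0.42 ± 0.11 with those 2 libraries left out (adjusted p = 0.0209). The Nutlin response of CCNE2 in S-phase cells minus that in asynchronous cells was 0.89 ± 0.18, the third smallest p of all genes tested, and did not pass adjustment (adjusted p = 0.555). Its interval at 95% confidence ran from 0.50 to 1.28. With those 2 libraries left out it was 0.86 ± 0.14 (adjusted p = 0.112).

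CCNA2 encodes cyclin A2, partner of CDK2 in S phase and of CDK1 in G2. Asynchronous cells had 12.32, 12.18 and 11.90 with DMSO and 11.62, 11.69 and 11.83 with Nutlin. Non-released cells had 11.92 and 11.83 with DMSO and 11.77 and 11.72 with Nutlin. S-phase cells had 12.04, 11.48 and 12.04 with DMSO and 12.06 and 11.74 with Nutlin. All 3 asynchronous DMSO libraries lay above all 3 Nutlin ones, the ranges of the states overlapped, and DMSO S-phase replicate 2 was the lowest library of all. No difference of CCNA2 passed the test with all 15 libraries. In asynchronous cells the Nutlin difference was −0.42 ± 0.15 (adjusted p = 0.219). It was −0.42 without DMSO S-phase replicate 2 (adjusted p = 0.0467) and −0.54 ± 0.09 with those 2 libraries left out (adjusted p = 0.00202). With both left out, CCNA2 was also lower in non-released than in asynchronous DMSO cells, by 0.37 ± 0.10 (adjusted p = 0.00701), against −0.26 ± 0.17 with all libraries (adjusted p = 0.251).

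CDK2, the kinase of cyclins E and A, stood at 11.49, 11.39 and 11.05 in asynchronous DMSO cells and at 11.20, 11.23 and 11.16 with Nutlin. Non-released cells had 11.73 and 11.71 with DMSO and 11.67 and 11.70 with Nutlin. S-phase cells had 11.84, 11.55 and 11.77 with DMSO and 11.87 and 11.83 with Nutlin. Every synchronised library lay above every asynchronous one. CDK2 rose by 0.41 ± 0.12 in non-released (adjusted p = 0.0147) and by 0.41 ± 0.10 in S-phase DMSO cells (adjusted p = 0.0113) relative to asynchronous cells. With Nutlin it rose by 0.49 ± 0.12 (adjusted p = 0.00572) and 0.65 ± 0.12 (adjusted p = 0.00167). The non-released call for CDK2 was lost with DMSO without DMSO non-released replicate 1 (0.41, adjusted p = 0.084) or replicate 2 (0.42, 0.0805). With Nutlin it was lost without Nutlin non-released replicate 2 (0.47, adjusted p = 0.0502). For Nutlin against DMSO in asynchronous cells the CDK2 difference was −0.11 ± 0.10 (adjusted p = 0.789), and −0.24 ± 0.06 with those 2 libraries left out (adjusted p = 0.0302).

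CDK4, a kinase of D cyclins, had the narrowest range of the 10 genes, 1.44-fold in normalised reads. Asynchronous cells had 12.06, 11.91 and 11.67 with DMSO and 11.81, 11.89 and 11.84 with Nutlin. Non-released cells had 11.73 and 11.65 with DMSO and 11.59 and 11.56 with Nutlin. S-phase cells had 11.70, 11.54 and 11.71 with DMSO and 11.70 and 11.62 with Nutlin. Nutlin and DMSO libraries overlapped in asynchronous and S-phase cells, and no CDK4 difference passed the test with all 15 libraries. In non-released minus asynchronous cells the differences were −0.19 ± 0.10 with DMSO (adjusted p = 0.174) and −0.27 ± 0.10 with Nutlin (adjusted p = 0.0561). In S-phase minus asynchronous cells they were −0.23 ± 0.09 with DMSO (adjusted p = 0.0843) and −0.18 ± 0.10 with Nutlin (adjusted p = 0.220). With those 2 libraries left out CDK4 was lower in all 4 of these comparisons, by 0.30 ± 0.07 (adjusted p = 0.00431), 0.27 ± 0.07 (0.00381), 0.27 ± 0.07 (0.0119) and 0.18 ± 0.07 (0.0411) in the order given. Without DMSO asynchronous replicate 3 alone, CDK4 was lower by 0.30 (adjusted p = 0.0200) and 0.33 (0.00945) in non-released and S-phase DMSO cells, and by 0.27 in non-released Nutlin cells (0.0178). The non-released Nutlin difference of CDK4 also passed without DMSO asynchronous replicate 1 (0.0316) or DMSO S-phase replicate 2 (0.0341).

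CDK6, the other kinase of D cyclins, stood at 14.62, 14.51 and 14.43 in asynchronous DMSO cells and at 14.62, 14.48 and 14.50 with Nutlin. Non-released cells had 13.85 and 13.69 with DMSO and 13.78 and 13.69 with Nutlin. S-phase cells had 14.10, 14.24 and 13.95 with DMSO and 14.16 and 14.01 with Nutlin. The 3 states did not overlap, with asynchronous cells highest and non-released cells lowest, and the Nutlin and DMSO libraries overlapped in every state. Relative to asynchronous cells CDK6 fell by 0.75 ± 0.11 in non-released DMSO cells (adjusted p = 0.000256) and by 0.80 ± 0.11 with Nutlin (adjusted p = 0.000162). In S-phase it was lower than in asynchronous cells by 0.43 ± 0.10 with DMSO (adjusted p = 0.00746) and by 0.45 ± 0.11 with Nutlin (adjusted p = 0.0105). The last of these was lost without Nutlin S-phase replicate 2 (−0.38, adjusted p = 0.0951). From non-released to S-phase cells CDK6 differed by 0.33 ± 0.11 with DMSO (adjusted p = 0.0981) and 0.35 ± 0.12 with Nutlin (adjusted p = 0.165), the second of which passed with those 2 libraries left out (0.35 ± 0.09, adjusted p = 0.0288).

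CDC25A stood at 11.05, 11.15 and 10.77 in asynchronous DMSO cells and at 10.36, 10.53 and 10.58 with Nutlin. Non-released cells had 10.96 and 10.92 with DMSO and 10.67 and 10.80 with Nutlin. S-phase cells had 10.85, 10.67 and 10.91 with DMSO and 10.76 and 10.73 with Nutlin. Nutlin libraries lay below DMSO libraries without overlap in asynchronous and non-released cells, and within their range in S-phase cells. CDC25A fell by 0.51 ± 0.10 with Nutlin in asynchronous cells (n = 3 and 3, adjusted p = 0.0159). The differences were −0.20 ± 0.13 in non-released cells (n = 2 and 2, adjusted p = 0.999) and −0.07 ± 0.11 in S-phase cells (n = 2 and 3, adjusted p = 0.828). The asynchronous call for CDC25A held in 19 of 24 alternatives and was −0.62 ± 0.08 with those 2 libraries left out (adjusted p = 0.000134). It was lost without DMSO asynchronous replicate 1 (−0.48, adjusted p = 0.0563) or replicate 2 (−0.43, 0.0896), or without Nutlin asynchronous replicate 1 (−0.44, 0.106) or replicate 2 (−0.53, 0.0565).

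Between states no CDC25A difference passed with all 15 libraries. With DMSO it was −0.06 ± 0.11 in non-released and −0.18 ± 0.10 in S-phase minus asynchronous cells (adjusted p = 0.742 and 0.196). With Nutlin it was 0.25 ± 0.11 and 0.26 ± 0.11 (adjusted p = 0.108 and 0.120), and with those 2 libraries left out these last 2 passed (0.25 ± 0.08 and 0.26 ± 0.08, adjusted p = 0.0149 and 0.0161). The first of them also passed without DMSO asynchronous replicate 3 alone (adjusted p = 0.0482). CDC25A was thus lowest in asynchronous Nutlin cells.

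**Figure D1:**
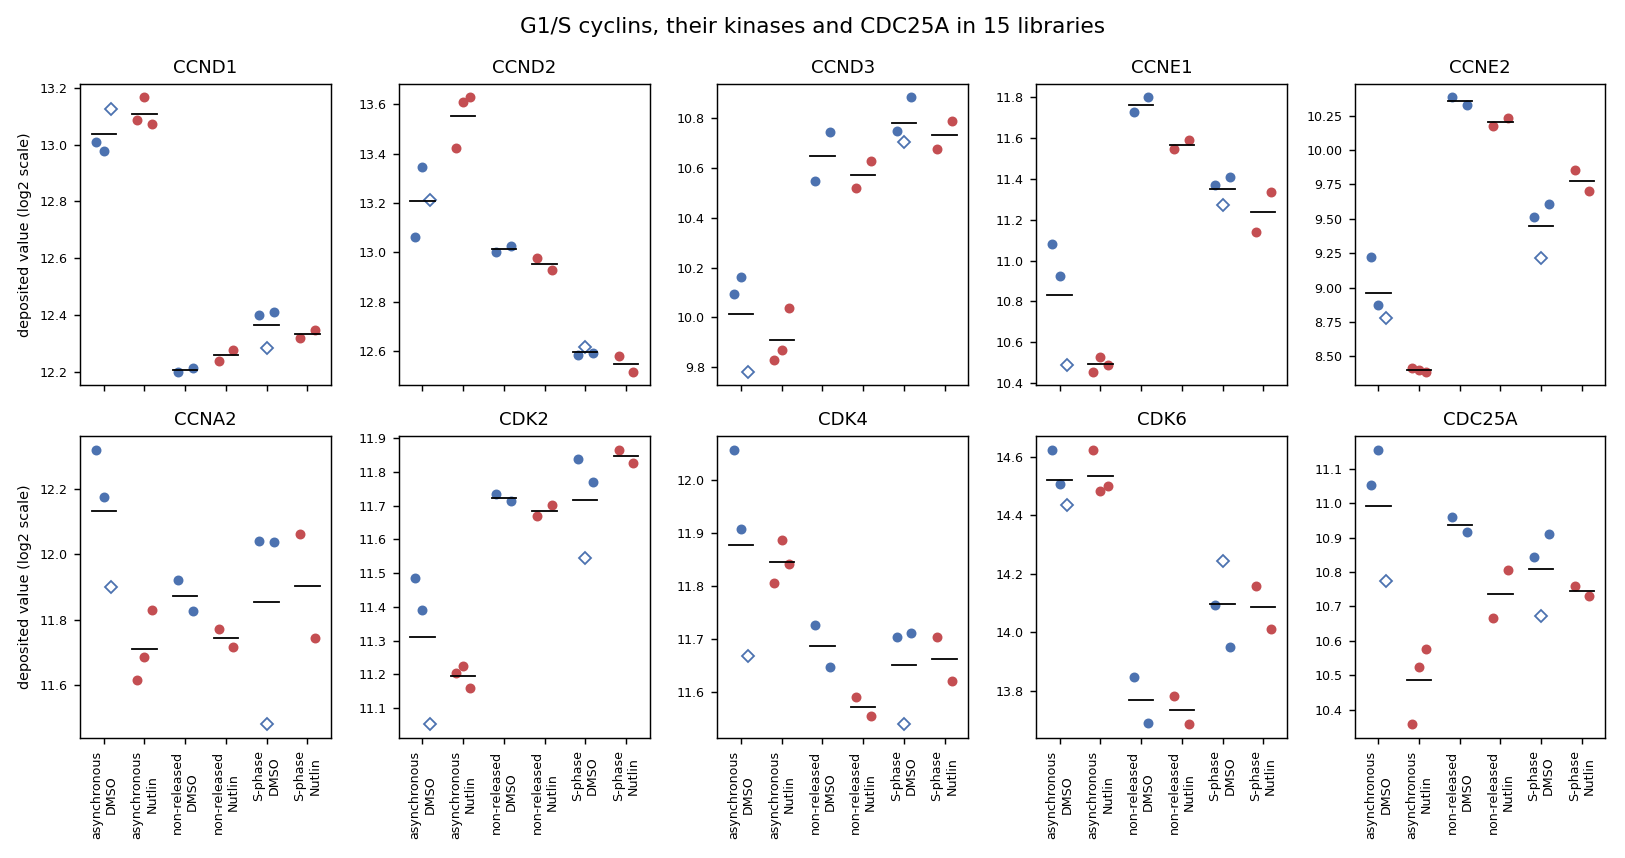
Deposited value (log2 scale) of each of the 10 genes in 15 libraries, grouped by state and treatment (blue DMSO, red Nutlin), with a line at each group mean. Open diamonds are DMSO asynchronous replicate 3 and DMSO S-phase replicate 2, and CCND3, CDK2 and the E cyclins sit higher in synchronised cells where CCND1 and CDK6 sit lower.

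Nutlin against DMSO asked which of these genes change when p53 is stabilised. In asynchronous cells 3 of the 10 genes were called, where 2.45% of all 14298 genes were. CCND2 was higher, and CCNE2 and CDC25A were lower. The median difference of the 10 genes was −0.11, against −0.02 over all genes. With those 2 libraries left out 6 were called (6.26% of all genes), adding CCNE1, CCNA2 and CDK2 on the lower side. In non-released cells no member was called, with 0.916% of all genes called, and in S-phase cells none either, with 2% called. The median differences of the 10 genes there were −0.09 and −0.02. An unadjusted p under 0.05 was reached by none of the 10 in non-released cells and by CCNE2 in S-phase cells, and voom called none in either state. By limma, CDKN1A and MDM2, the checks of the Nutlin label, were not called in any of the 3 states either. Both nonetheless lay higher in Nutlin than in DMSO libraries, without overlap, in non-released and S-phase cells. For CDKN1A these were 13.91 and 13.96 against 12.44 and 12.53 in non-released cells. The fit uses 1 spread per gene for all groups, so DMSO asynchronous replicate 3, at the Nutlin level for both genes, enters each of these tests. The range of the 10 differences was −0.20 (CDC25A) to 0.05 (CCND1) in non-released and −0.11 (CCNE1) to 0.33 (CCNE2) in S-phase cells.

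**Figure D2:**
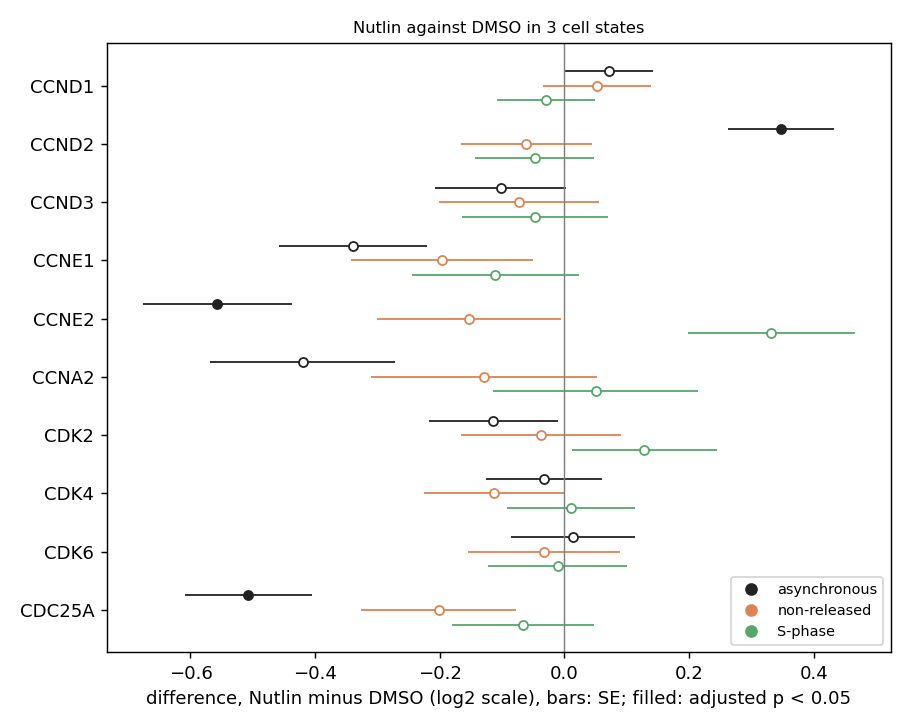
Difference, Nutlin minus DMSO, on the log2 scale for each gene in each of the 3 states, with bars of 1 SE and filled points at adjusted p under 0.05. Filled points are CCND2 (0.35), CCNE2 (−0.56) and CDC25A (−0.51), all in asynchronous cells.

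Whether the response to Nutlin differed between states was tested directly. S-phase cells had Nutlin for 4 h before and 4 h after release. The labels give no time after that point for non-released cells and no time in Nutlin for asynchronous ones. State and time in Nutlin therefore cannot be told apart in these tests. No gene of the 14298 was called in any of the 3 tests, so 0% stands as the background for each. By limma, 155 genes reached an unadjusted p under 0.05 for non-released minus asynchronous cells, 787 for S-phase minus asynchronous cells and 321 for S-phase minus non-released cells. For non-released minus asynchronous cells CCND2 gave −0.41 ± 0.14 (interval −0.70 to −0.12, adjusted p = 0.9998). For S-phase minus asynchronous cells CDC25A gave 0.44 ± 0.15 (interval 0.11 to 0.77, adjusted p = 0.836) and CCND2 −0.40 ± 0.13 (interval −0.67 to −0.12, adjusted p = 0.836). CCNE2 in S-phase minus non-released cells gave 0.49 ± 0.20 (interval 0.06 to 0.91, adjusted p = 0.999). Nutlin responses of opposite sign, with no overlap of Nutlin and DMSO libraries in either state, were seen for CCND2 in non-released and asynchronous cells (0.518% of all genes met this), for CCND2 and CCNE2 in S-phase and asynchronous cells (0.587%) and for CCNE2 in S-phase and non-released cells (2.05%). For CCND2 in S-phase cells the nearest Nutlin and DMSO libraries lay at 12.581 and 12.582. The limma tests of the difference do not show that the asynchronous calls are particular to asynchronous cells.

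Comparing states asked how the genes follow the block and the release, and most of them moved. In non-released against asynchronous DMSO cells 6 of the 10 were called, where 33.9% of all genes were: CCND3, CCNE1, CCNE2 and CDK2 higher, CCND1 and CDK6 lower. S-phase against asynchronous DMSO cells called 7, with the same 4 higher and CCND1, CCND2 and CDK6 lower, and 27.7% of all genes were called. With Nutlin 7 were called in each comparison, those same 4 higher and CCND1, CCND2 and CDK6 lower, against 34.5% of all genes for non-released cells and 24% for S-phase cells. State and time in Nutlin cannot be told apart in comparisons of states under Nutlin either. From non-released to S-phase DMSO cells 2 were called, CCND2 and CCNE2, both lower, where 6.99% of all genes were. With Nutlin none was called at that step, where 2.43% of all genes were. With those 2 libraries left out 4 were called there (10.8% of all genes), CCND2, CCNE1 and CCNE2 lower and CDK6 higher. Leaving those 2 libraries out gave 8 calls in each DMSO comparison with asynchronous cells (48% and 31.9% of all genes), 9 in each Nutlin one (50.2% and 41.2%) and 3 from non-released to S-phase DMSO cells (14.3%). Within a treatment the comparisons with asynchronous cells share those asynchronous libraries, while the DMSO and Nutlin comparisons share none.

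**Figure D3:**
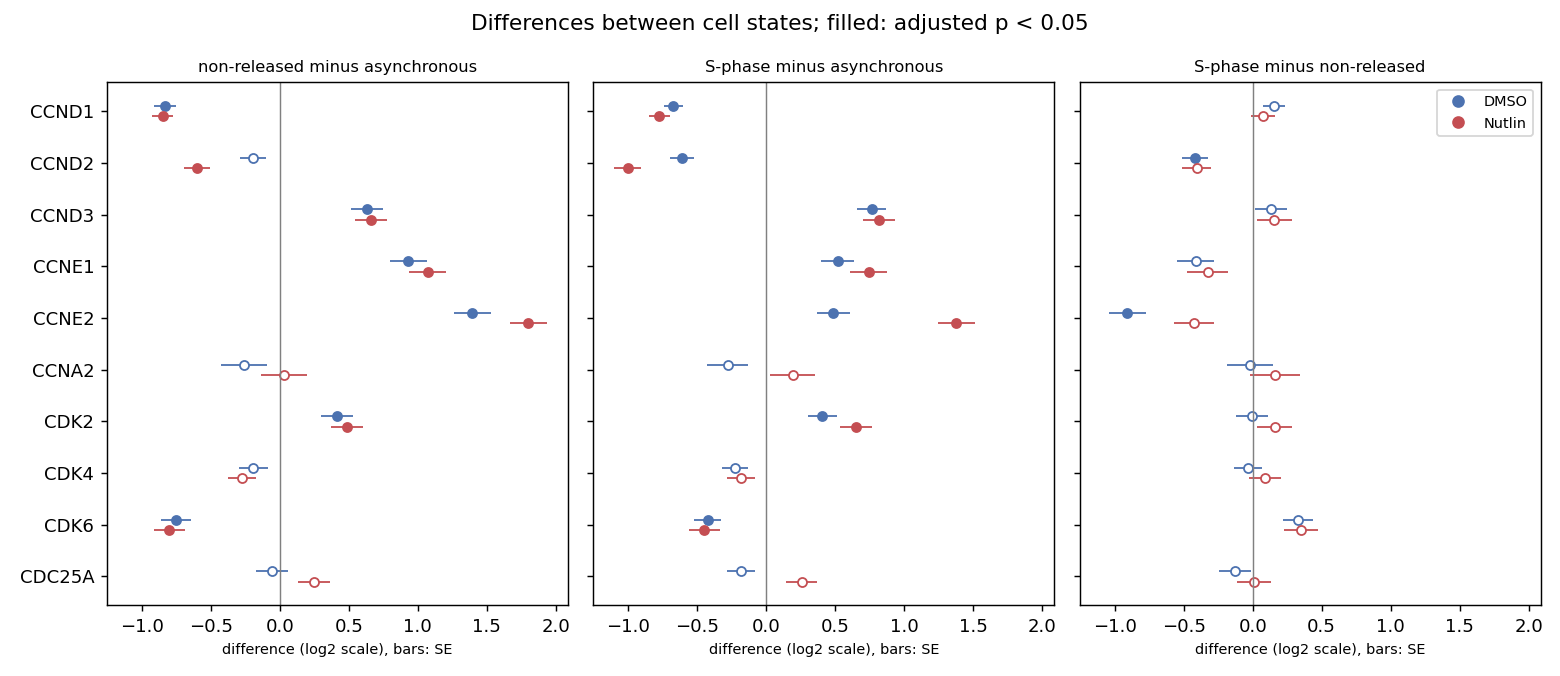
Difference between states on the log2 scale for each gene, in DMSO (blue) and Nutlin (red) cells, with bars of 1 SE and filled points at adjusted p under 0.05. CCNE2 shows the longest shifts, 1.40 and 1.80 from asynchronous to non-released cells.

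Levels between genes were compared as reads per kb of exon and M reads, using exon lengths from a GENCODE annotation of GRCh38 (the build named in the submitters' processing notes is hg19). In asynchronous DMSO cells CDK6 (120 ± 1.85 SD, n = 3) and CCND1 (114 ± 11.1) were the most abundant and CCNE2 the least (7.77 ± 1.07). CDK4 (108 ± 9.45) and CCNA2 (95.5 ± 9.54) followed, with ranges of 1 SD that overlap from each gene to the next, and then CCND2 (87.7 ± 11.6). CDK2 (61.4 ± 6.97), CCNE1 (51.5 ± 8.53), CDC25A (31.6 ± 3.75) and CCND3 (14.96 ± 1.79) came below. In non-released DMSO cells CCNE1 had the highest mean, 110 ± 3.57 (SD, n = 2), and CCND1 stood seventh at 70.8 ± 0.22. CDK4 was next to CCNE1 at 104 ± 4.32, and both stood at 107.28 in replicate 1. By group means CCNE2 was the least abundant of the 10 in every group, from 4.96 ± 0.02 in asynchronous Nutlin to 24.4 ± 0.75 in non-released DMSO cells. In the latter its 2 libraries (24.91 and 23.85) overlapped those of CCND3 (24.43 and 28.04). With the longest transcript as the length, CCND3 came out above CDC25A in 5 of the 6 groups, so their order is not fixed by these data.

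**Figure D4:**
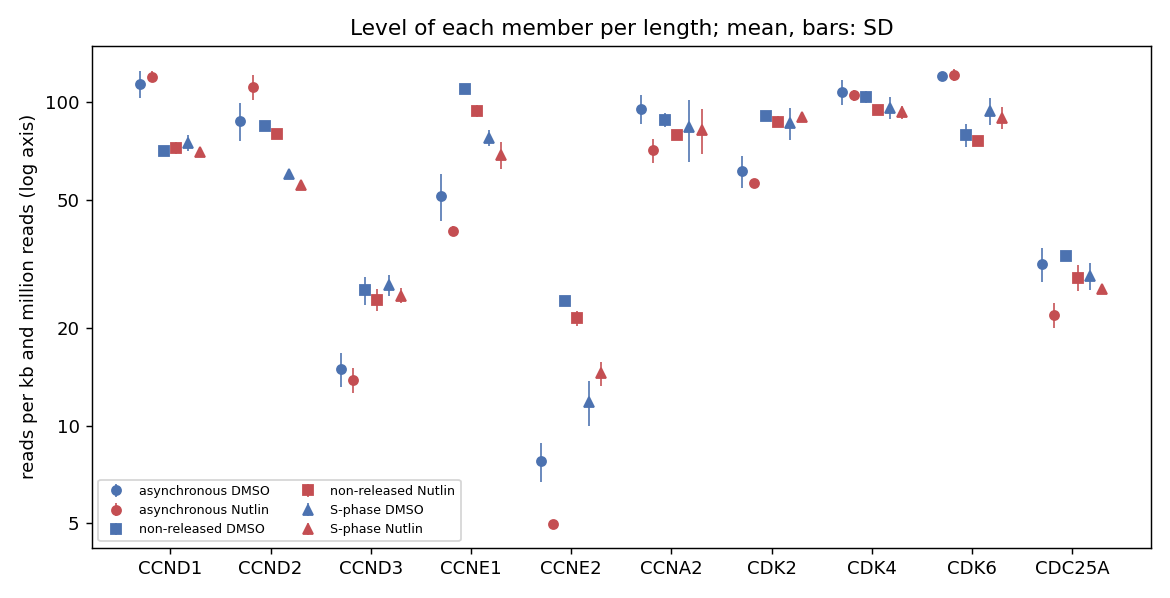
Mean reads per kb of exon and M reads of each gene in the 6 groups (log axis), with bars of 1 SD over 2 or 3 libraries, circles for asynchronous, squares for non-released and triangles for S-phase cells. The mean of CCNE2 is lowest in every group, and CCNE1 exceeds CCND1 in non-released cells.

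The balance between the genes shifted with state on the same scale. Summed E cyclins over summed D cyclins came to 0.342, 0.278 and 0.211 in asynchronous DMSO libraries and to 0.190, 0.181 and 0.180 with Nutlin. In non-released libraries the ratio was 0.737 and 0.739 with DMSO and 0.645 and 0.662 with Nutlin. In S-phase libraries it was 0.561, 0.530 and 0.566 with DMSO and 0.527 and 0.577 with Nutlin. Asynchronous and non-released Nutlin libraries lay below their DMSO counterparts, and S-phase libraries overlapped. The lowest asynchronous DMSO ratio was that of the library labelled replicate 3. Summed D cyclins averaged 217 ± 19.1 (SD, n = 3) in asynchronous DMSO cells, 245 ± 13.5 with Nutlin, and 151 to 182 in the other 4 groups.

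CCND3 made up 6.94 ± 1.09% (SD, n = 3) of the D cyclins in asynchronous DMSO cells and 5.66 ± 0.41% with Nutlin. Its share was 14.4 ± 1.13% and 13.8 ± 0.71% in non-released cells and 16.8 ± 0.72% and 16.7 ± 0.87% in S-phase cells, with DMSO and Nutlin in turn. CCND1 held 52.7 ± 2.99% in asynchronous DMSO cells and 39.0 ± 0.63% in non-released DMSO cells. CDK6 to CDK4 averaged 1.12 ± 0.09 in asynchronous and 0.76 ± 0.03 in non-released DMSO cells, so CDK4 was the more abundant of the pair under the block. CDK2 to the sum of CDK4 and CDK6 averaged 0.269 ± 0.019 in asynchronous DMSO cells and 0.497 ± 0.023 in non-released DMSO cells, with S-phase DMSO libraries at 0.481, 0.393 and 0.480. In 1 of those, replicate 2, the ratio lay below all other synchronised libraries, and without it the S-phase mean was 0.481.

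**Figure D5:**
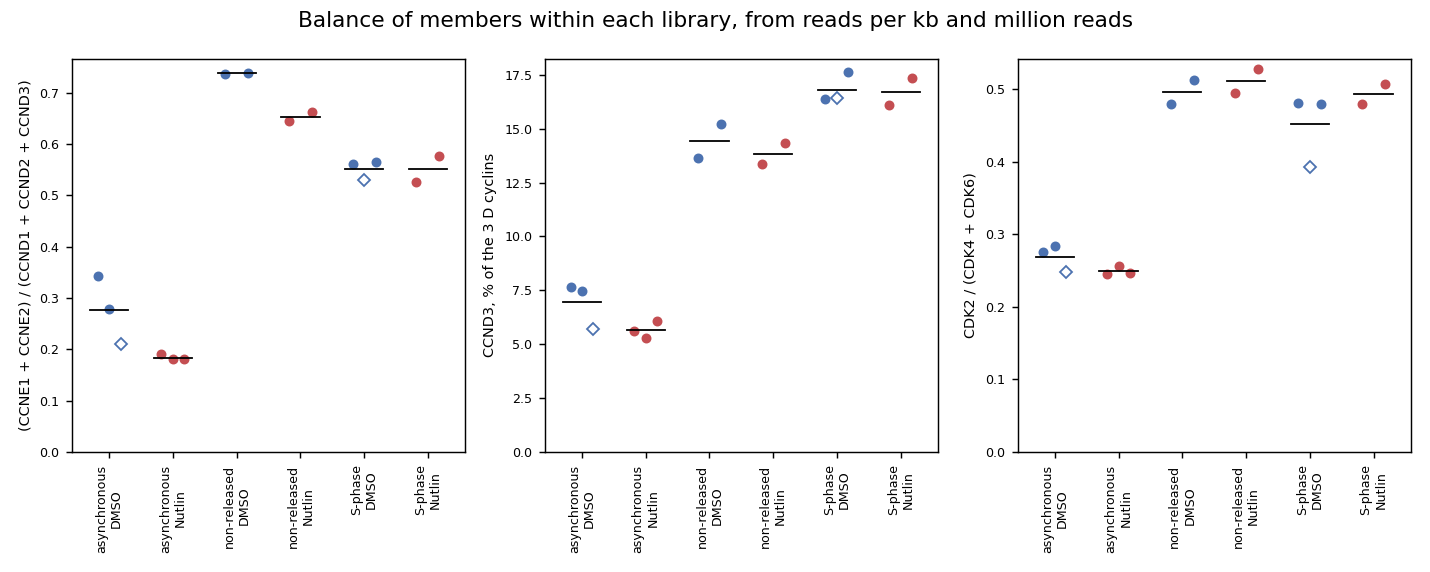
Ratio of E to D cyclins, CCND3 as a percentage of the 3 D cyclins, and ratio of CDK2 to CDK4 plus CDK6 in each library, from reads per kb and M reads, with a line at each group mean (blue DMSO, red Nutlin, open diamonds the 2 libraries that stand apart). All 9 synchronised libraries lie above all 6 asynchronous ones in each panel.

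Across the 15 libraries the genes fell into opposed sets, described by Pearson's r over libraries that share their cell states. CCNE1 and CCNE2 followed each other (r = 0.95), and CCND3 and CDK2 did so too (r = 0.93). CCND1 ran opposite to CCND3 (r = −0.93), CCNE1 (r = −0.92) and CCNE2 (r = −0.91), and alongside CDK6 (r = 0.89). CCNA2 was close to 0 with the E cyclins (r = 0.07 and 0.09) and was nearest to CDC25A (r = 0.75). Over the 13 libraries without those that stand apart, CCNE1 with CCNE2 gave 0.97 and CCNA2 with CDC25A 0.79. Of all tested genes, those most like CDC25A were MCM3 (r = 0.94), SLBP (0.94) and MCM5 (0.93), and over the 13 libraries SLBP (0.94), MCM3 (0.94) and DNAJC9 (0.94). CCNE2 was most like BRIP1 (0.98), WDHD1 (0.98) and AKAP7 (0.97), and over 13 libraries POLA2 (0.99), BRIP1 (0.99) and PIEZO2 (0.98). For CCNA2 the list was CEP55 (0.95), CWF19L1 (0.95) and TTK (0.95), none of which remained over 13 libraries, where it was CCNB2 (0.98), CENPA (0.96) and RACGAP1 (0.95). CCND1 was most like TRNT1 (0.98) over 15 libraries and SH2D5 (0.99) over 13, where TRNT1 left the first 3. IMPA2 led for CCNE1 over both (0.99).

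Genes of the same pathway were taken from 7 lists, and their tests are given with all libraries only. Whether their calls change with the libraries that stand apart left out is not shown. Among 17 S-phase genes driven by E2F, 1 was higher and 6 were lower with Nutlin in asynchronous cells (2.45% of all genes were called), with a median of −0.37 against −0.02 over all genes. MCM6 (−0.52 ± 0.10, adjusted p = 0.00894) and MCM3 (−0.56 ± 0.11, adjusted p = 0.0154), subunits of the replicative helicase, fell as CDC25A and CCNE2 did. PCNA, the sliding clamp of DNA polymerases and also a p53 target, rose by 0.50 ± 0.10 (adjusted p = 0.0155). None of the 17 was called with Nutlin in non-released cells, where 0.916% of all genes were. In S-phase cells PCNA alone was called (0.83 ± 0.11, adjusted p = 0.000962), where 2% of all genes were. Between states 8 of the 17 were higher and none lower in non-released than in asynchronous DMSO cells, where 33.9% of all genes were called, 2423 higher and 2431 lower. They were led by PCNA (0.70 ± 0.11, adjusted p = 0.000417) and the ribonucleotide reductase subunit RRM2 (0.77 ± 0.13, adjusted p = 0.000705). With Nutlin 10 were higher and none lower there, against 34.5% of all genes called.

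Of 13 pocket proteins and E2F factors, 1 was higher and 3 were lower with Nutlin in asynchronous cells, at the same 2.45% of all genes. The activator E2F2 fell by 1.00 ± 0.15 (adjusted p = 0.00122), E2F1 by 0.50 ± 0.11 (adjusted p = 0.0217) and the repressor E2F8 by 0.56 ± 0.11 (adjusted p = 0.0127). The repressor E2F7, a p53 target, rose by 0.61 ± 0.10 (adjusted p = 0.00498). In non-released against asynchronous DMSO cells 5 were higher and 2 lower (33.9% of all genes were called), among them E2F2 (1.14 ± 0.16, adjusted p = 0.000196) and E2F4 (−0.78 ± 0.11, adjusted p = 0.000207). E2F2 then fell by 1.18 ± 0.16 from non-released to S-phase DMSO cells (adjusted p = 0.000706), a step at which CCNE2 also fell.

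Of 7 CDK inhibitor genes 6 were tested. CDKN2C, which encodes the CDK4 and CDK6 inhibitor p18, fell by 0.48 ± 0.10 with Nutlin in asynchronous cells (adjusted p = 0.023) and rose by 1.19 ± 0.12 in non-released DMSO cells (adjusted p = 1.457e-05). It was 1 of 3 inhibitors that rose there, with none lower, against 33.9% of all genes called. CDKN1A itself differed by 1.22 ± 0.49 with Nutlin in asynchronous cells and was not called (adjusted p = 0.305), the library labelled DMSO asynchronous replicate 3 being at the Nutlin level. Nor was it called in non-released (1.445 ± 0.599, adjusted p = 0.597) or S-phase cells (1.997 ± 0.547, adjusted p = 0.0927). MDM2 was not called in asynchronous (1.381 ± 0.425, adjusted p = 0.135), non-released (1.726 ± 0.520, adjusted p = 0.220) or S-phase cells (1.955 ± 0.475, adjusted p = 0.0526). In non-released and S-phase cells the Nutlin libraries of both genes lay above the DMSO ones without overlap. DMSO asynchronous replicate 3 enters the shared spread of these tests too. Among 19 genes for turnover of cyclins and CDC25A, 1 was called with Nutlin in each state, FBXW7. Of all genes 2.45% were called in asynchronous, 0.916% in non-released and 2% in S-phase cells. FBXW7 encodes the ubiquitin ligase subunit that recognises cyclin E and is itself a p53 target. It rose by 0.89 ± 0.08 (adjusted p = 1.91e-05) in asynchronous, 0.81 ± 0.10 (adjusted p = 0.00126) in non-released and 1.15 ± 0.09 (adjusted p = 1.27e-05) in S-phase cells.

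Of 10 genes for CDK activation and tyrosine phosphorylation, WEE1, the kinase that opposes CDC25A, was the single call with Nutlin in asynchronous cells (−0.39 ± 0.08, adjusted p = 0.0156). Of all genes 2.45% were called there. In non-released against asynchronous DMSO cells, where 33.9% of all genes were called, 3 of the 10 were lower, among them the CDK-binding subunit CKS2 (−0.75 ± 0.16, adjusted p = 0.00326). Of a list of G2 and mitotic cyclins, CDK1 and minor kinases, 5 were tested: CCNB1, CCNB2, CCNB3, CCNF and CDK1. The minor kinase CDK3 and the cyclin CCNA1 were not tested. None of the 5 was called with Nutlin in asynchronous cells, where 2.45% of all genes were. CCNB1 fell by 0.66 ± 0.15 from asynchronous to non-released DMSO cells (adjusted p = 0.00532), 1 of 2 lower there, against 33.9% of all genes called. Of 13 transcription factors upstream of D cyclins, MYC fell by 1.65 ± 0.14 from asynchronous to non-released DMSO cells (adjusted p = 6.912e-06), where CCND1 also fell. MYC then rose by 1.13 ± 0.14 in S-phase DMSO cells (adjusted p = 0.000263), where CCND1 differed by 0.16 ± 0.08 (adjusted p = 0.280). In all 6 of these 13 factors were lower and 2 higher at the first step, where 33.9% of all genes were called, and 4 were higher and none lower at the second, where 6.99% were.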

How the data were processed

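RNA from 15 libraries in 6 groups, all labelled U2OS, was sequenced as TruSeq libraries of total RNA, per the labels' protocols. The deposited table holds variance-stabilised values on a log2 scale, and according to the submitters' processing notes the tools were TopHat 0.9, DESeq2 1.10.1, HTSeq and CASAVA 1.8.2, with hg19 as build, their roles not being given. The strand and annotation are not given in the sources used here. Inverting the transformation gave whole reads, within 0.05 of a whole number for 98.39% of values in DMSO S-phase replicate 3 and at least 99.87% in each other library. These reads served for depths, levels per length and voom, and the deposited log2 values served for all tests. That scale understates differences at low reads.

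Each test was a limma fit (limma 3.58.1, R 4.3.3) to the 15 libraries with a term for every group, eBayes with a trend (prior degrees of freedom 4.66), two-sided, Benjamini-Hochberg adjusted within each comparison over the 14298 genes that exceeded the lowest value, 4.86, by 1 unit in 2 or more libraries. Because groups share 1 spread per gene, a library far from its group changes every p-value of that gene. Intervals are at 95% confidence. The script was tested on simulated data. Members and gene lists were chosen with earlier results of these data known. All 10 members are named, and of each list up to 4 called genes with the smallest p (else up to 2) could be named, with CDKN1A and MDM2 as checks. For likeness, the 3 genes with the highest r were taken per member. Alternatives were another scaling or filter, no trend, compared groups alone, voom, a replicate block, each library left out and both libraries that stand apart left out. Replicates differed beyond counting noise, so none was merged.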

Additional observations from a re-analysis of the deposited data

Results flagged for a closer look

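CCND2 and CCNE2 had Nutlin responses of opposite sign in different states, with no overlap between the Nutlin and DMSO libraries of either state. For CCND2 the response in non-released cells minus that in asynchronous cells was −0.41 (−0.408), and in S-phase minus asynchronous cells −0.40 (−0.395): asynchronous Nutlin libraries lay above DMSO and the synchronised ones below. For CCNE2 the S-phase response minus the asynchronous one was 0.89, and minus the non-released one 0.49 (0.486): Nutlin libraries lay below DMSO in asynchronous and non-released cells and above it in S-phase cells. The same pattern was met by 0.518% of all genes for non-released with asynchronous cells, 0.587% for S-phase with asynchronous cells and 2.05% for S-phase with non-released cells. The synchronised responses of CCND2 were small, −0.06 ± 0.11 and −0.05 ± 0.10 (SE), and its S-phase libraries were separated only at the third decimal (12.581 against 12.582). By the limma test of the difference itself none passed adjustment (adjusted p = 0.9998, 0.836, 0.555 and 0.999 in the order given). State and time in Nutlin cannot be told apart in these differences.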

How the results depend on the processing

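No difference of a member that was called changed sign under any of the 24 alternatives. The number of the 10 genes called moved by over 1.5 times as follows. Without both libraries that stand apart it was 6 for Nutlin in asynchronous cells (3 with all) and 4 for S-phase against non-released Nutlin cells (0 with all). With the compared groups alone in the fit it was 0 for Nutlin in asynchronous cells, 3 for S-phase against asynchronous DMSO cells (7 with all), 1 for S-phase against non-released DMSO cells (2 with all) and 2 for that step with Nutlin, where fewer libraries estimate the spread. With voom on total reads that last count was also 2, and the median of all genes shifted to −0.11 there and to 0.14 and 0.13 in non-released against asynchronous cells with DMSO and Nutlin. The cause of these moves was not tested. Leaving out 1 library at a time gave 0 to 4 for Nutlin in asynchronous cells, 1 to 3 for S-phase against non-released DMSO cells and 0 to 1 for that step with Nutlin. Over all genes, leaving both out gave 888 calls for Nutlin in asynchronous (351 with all), 459 in non-released (131) and 564 in S-phase cells (286), 5847 for S-phase against asynchronous Nutlin cells (3434), 2032 for S-phase against non-released DMSO cells (1000), 1539 for that step with Nutlin (348) and 3 for the response in non-released minus asynchronous cells (0). With the compared groups alone the calls for Nutlin were 209, 623 and 101 in those 3 states. They were 1053 for S-phase against asynchronous DMSO cells (3955), 336 and 727 for S-phase against non-released cells with DMSO and Nutlin, and 7720 and 5155 for non-released and S-phase against asynchronous Nutlin cells. Voom gave 228 for Nutlin in non-released cells with size factors and 188 in S-phase cells with total reads. Single libraries moved these totals too. For Nutlin in asynchronous cells 171, 195 and 207 genes were called without Nutlin asynchronous replicate 1 or 2 or DMSO asynchronous replicate 2. For Nutlin in non-released cells 22 to 43 were called without any 1 of the 4 non-released libraries, and 274 and 210 without DMSO asynchronous replicate 3 or DMSO S-phase replicate 2. For Nutlin in S-phase cells 167 and 88 were called without Nutlin S-phase replicate 1 or 2, and 466 without DMSO asynchronous replicate 3. Non-released against asynchronous cells gave 2893 and 2400 (4854 with all) without DMSO non-released replicate 1 or 2, and with Nutlin 2570 and 2713 (4933) without Nutlin non-released replicate 1 or 2. S-phase against asynchronous Nutlin cells gave 2218, 1802 and 2083 without Nutlin asynchronous replicate 2 or Nutlin S-phase replicate 1 or 2. S-phase against non-released cells gave 277 and 233 without DMSO non-released replicate 1 or 2. With Nutlin that step gave 72 to 121 without any 1 of its 4 libraries, and 613 and 663 without DMSO asynchronous replicate 3 or DMSO S-phase replicate 2. The labels do not say that replicate numbers mark a shared culture or day, and numbers were not taken to pair the libraries, since not every pair correlated above 0.1. Same-numbered DMSO and Nutlin libraries correlated in their deviations from the group means at 0.313, 0.136 and 0.074 in asynchronous cells, 0.325 in non-released cells and 0.341 and 0.351 in S-phase cells. All 6 of these values are above 0, a weak hint from the data and not from the design, and not every library correlated best with its own number. The lowest of them, 0.074, involves DMSO asynchronous replicate 3, which went against its label, so it cannot decide whether numbers pair. Between states, same-numbered libraries ran from −0.284 to 0.481. In a group of 2 libraries the deviations mirror each other, so the 6 values are tied and do not count as separate evidence. With a replicate block 3 genes were called for Nutlin in asynchronous cells, and 3 and 8 (2 and 7 without it) for S-phase against non-released DMSO and non-released against asynchronous Nutlin cells. The design has 2 or 3 libraries a group, which limits the small differences seen in non-released and S-phase cells. CCNE2 had the fewest reads, 203 to 397 in asynchronous Nutlin libraries, so counting error adds to its values.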
